A study of Mus musculus with 10 samples.

Results

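The fibroblast growth factor (FGF) receptors, ligands, binding protein and adaptors of skeletal muscle were followed in mouse tibialis anterior, the fast muscle along the front of the shin. The members were taken by symbol from a named list of 10 genes, namely the receptors Fgfr1, Fgfr2, Fgfr3 and Fgfr4, the ligands Fgf1, Fgf2 and Fgf7, the secreted binding protein Fgfbp1 and the docking adaptors Frs2 and Frs3. Rows were found for 9 of the 10, among 13492 genes in all; Fgfr2 was not analysed here. All 9 passed the expression minimum, a mean of at least 0 log2 CPM (read counts scaled to library size), which kept 12223 genes for testing.

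The tested animals were Lrtm1 knockout mice (libraries labelled KO, n = 5), set against floxed Lrtm1 controls whose titles read WT (libraries labelled WT, n = 5). All were on a C57BL/6 background, 6 months old and fasted for 3 h, and both genotypes occurred in each of litters 108, 110 and 112. The labels do not say what drives the deletion, and the design text gives a group size of 4 where the labels give 5. Whether each library came from its own animal is not stated, and the p-values therefore reflect only how far these libraries spread, which may be technical.

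FGFs are secreted ligands that bind receptor tyrosine kinases together with heparan sulfate chains on the cell surface. The activated receptor phosphorylates the membrane-anchored docking protein FRS2, which recruits GRB2, SHP2 and SOS and so turns on the RAS-ERK cascade. In muscle the pathway is known for driving proliferation of satellite cells, the resident stem cells, and for holding myoblasts back from differentiation. LRTM1, a leucine-rich repeat membrane protein, has been reported to bind FGFR1 and dampen its signalling in cultured mouse myoblasts, which is the background for looking at these genes in Lrtm1 muscle.

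Levels are given as adjusted log2 CPM from the authors' deposited table. The depth behind them is unknown, library medians lay between 3.35 and 3.36 log2 CPM, and the myofibre transcripts Acta1, Ckm, Mb, Myh4, Tnnt3 and Tnni2 together took between 79475 and 82745 CPM in labelled KO libraries and between 70634 and 82116 CPM in labelled WT libraries. Lrtm1 itself was not lower in the libraries labelled KO: it averaged 6.12 ± 0.10 log2 CPM there and 5.68 ± 0.07 log2 CPM in the libraries labelled WT (SD, n = 5 each), a log2 difference of 0.44 (SE 0.07; limma adjusted p = 0.0344). The 5 labelled KO libraries (5.97 to 6.21) all lay above the 5 labelled WT libraries (5.61 to 5.78). The level of the targeted gene thus goes against the labels, although reads from outside the deleted stretch, which the labels do not describe, would check nothing, and every direction below is one between libraries as labelled.

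No member passed the test between genotypes. With limma, litter in the model and adjustment over all 12223 genes, 0 of 9 members had an adjusted p under 0.05, where 41 of all tested genes (0.335%) did. At an unadjusted p under 0.05 there were 3 members, Fgfr3, Fgf1 and Fgfbp1, where 10.1% of all tested genes reached that level. The deposited values had lost 3 further dimensions of variation besides litter, and this test counts only the 3 residual degrees of freedom that remained; a fit with litter and genotype alone, which counts 6, passed Fgfbp1 and Fgf7, both lower in labelled KO, where that fit passed 8.62% of all genes and 3.48% in that direction. The count of 41 itself was unsteady. It was 11, 21 and 17 without KO replicates 2, 3 and 5. Without WT replicates 1, 3 and 6 it was 5, 24 and 1. The count of members stayed at 0 whichever library was left out. Those fits kept 2 residual degrees of freedom, and in them the lost dimensions are no longer independent of genotype.

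**Figure D1:**
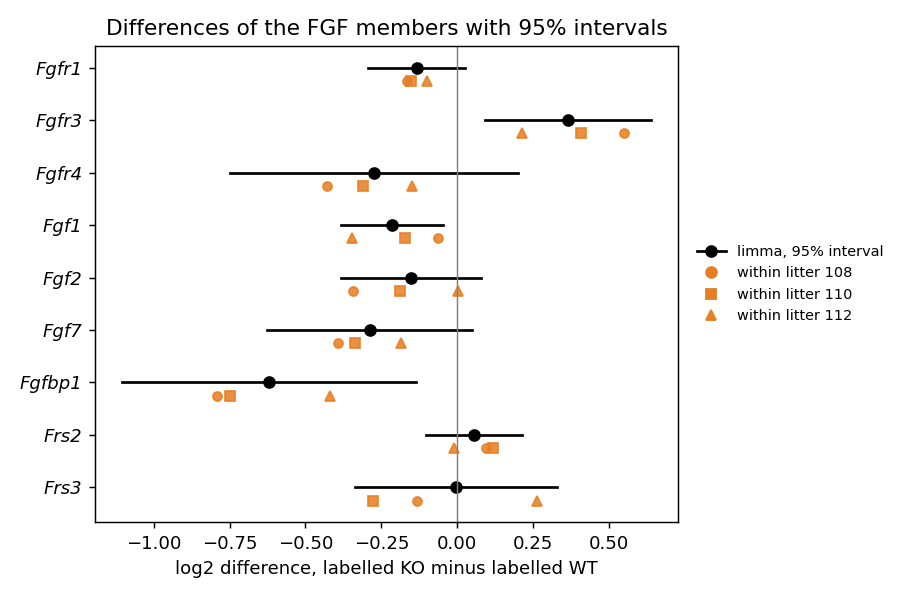
Log2 difference, labelled KO minus labelled WT, for the 9 members (rows); black points are limma estimates with 95% intervals, and orange symbols are the differences of means within each litter. The intervals of Fgfr3, Fgf1 and Fgfbp1 do not include 0, and none of the 9 has an adjusted p under 0.05.

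Of the 9 members, 7 had a difference below 0 and 2 above, where 51.4% of all tested genes lay below 0. Their median log2 difference was -0.15, against -0.00 over all tested genes, and their median absolute difference was 0.215, against 0.0785. All tested genes were not matched to the members for expression level. Fgfbp1, Fgfr4 and Fgf7 averaged only 0.145, 0.56 and 1.10 log2 CPM, with SEs of 0.22, 0.21 and 0.15 on their differences, against 0.07 for Fgfr1. Groups did not overlap for 3 members, Fgf1, Fgf7 and Fgfbp1, each with all labelled KO libraries below all labelled WT libraries. The groups failed to overlap in 16.2% of all tested genes, and in 7.63% in that direction. The members are a small list chosen with earlier results of these data known, so these counts describe them and do not test them.

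Per kilobase of each gene's longest annotated transcript, Fgfr1 and Fgf1 were by far the most abundant members. Fgfr1 reached 9.98 ± 0.39 CPM per kb in labelled KO and 11.0 ± 0.83 CPM per kb in labelled WT libraries, and Fgf1 reached 8.56 ± 0.60 CPM per kb in labelled KO and 9.92 ± 0.47 CPM per kb in labelled WT libraries (SD, n = 5 each). Frs2 followed at 2.94 CPM per kb in labelled KO and 2.83 in labelled WT libraries. In labelled KO libraries Frs3 had 1.87, Fgfr3 1.92 and Fgf2 1.356 CPM per kb, against 1.89, 1.49 and 1.503 CPM per kb in labelled WT libraries. The lowest levels were those of Fgf7, Fgfbp1 and Fgfr4, at 0.724, 0.409 and 0.406 CPM per kb in labelled KO libraries, against 0.884, 0.630 and 0.494 CPM per kb in labelled WT libraries. Over all 10 libraries the ranges of Fgfr1 and Fgf1 overlapped, as did those of Frs3 with Fgfr3, Fgfr3 with Fgf2, Fgf7 with Fgfbp1 and Fgfbp1 with Fgfr4. Only the steps from Fgf1 to Frs2, from Frs2 to Frs3 and from Fgf2 to Fgf7 left no overlap. The expressed isoform was not known, so these levels depend on the longest transcript being used.

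**Figure D2:**
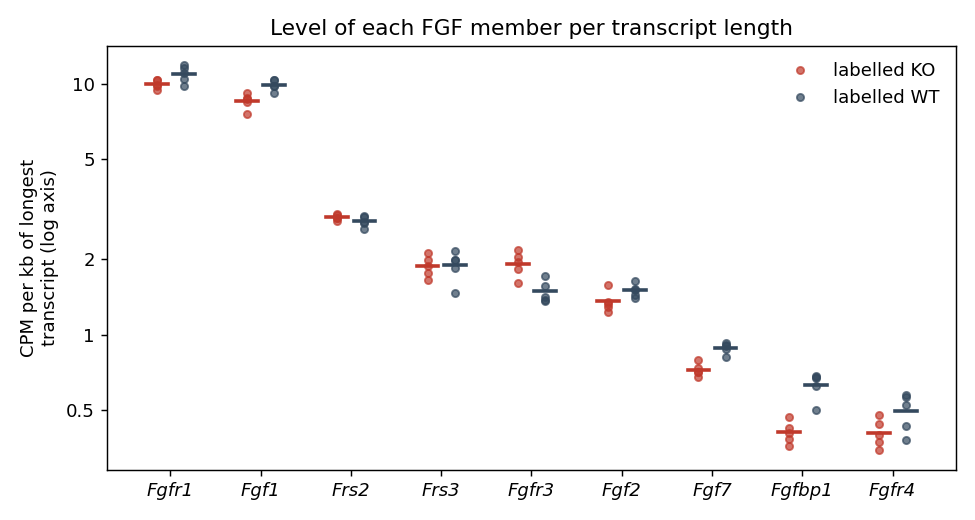
Level of each member in CPM per kb of its longest annotated transcript (log axis), with 1 point per library, labelled KO left of labelled WT, and bars at group means. Fgfr1 and Fgf1 stand near 10 CPM per kb, and Fgfr4 and Fgfbp1 are the lowest.

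Among the receptors, Fgfr1, the main FGF receptor of muscle and of satellite cells, was the most abundant, and no difference between genotypes was detected. The gene lies on mouse chromosome 8 (GRCm38, 25513654 to 25575718, plus strand). In replicates 1 to 5 labelled KO its level was 5.58, 5.70, 5.64, 5.71 and 5.62 log2 CPM, against 5.81, 5.87, 5.72, 5.63 and 5.91 log2 CPM in replicates 1, 3, 4, 5 and 6 labelled WT. The groups overlapped through WT replicate 5, whose 5.63 lay among the labelled KO values. The log2 difference was -0.13 (SE 0.07, 95% interval -0.29 to 0.03; limma adjusted p = 0.579), which corresponds to a fold of 0.911 with an interval from 0.815 to 1.02. By litter it was -0.17 (108), -0.15 (110) and -0.10 (112), and its absolute size exceeded that of 71.1% of all tested genes. Opposite-strand transcripts are annotated over exons of Fgfr1 (Gm16159), Fgfr3 (G630022F23Rik) and Frs3 (Frs3os), and reads of such partners may not have been told apart. On the same strand, Gm43439 overlaps exons of Fgf2 and Tomm6os those of Frs3, where strand would not part the reads.

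Fgfr3, a receptor best known for restraining growth of long bones, was the one receptor with a difference above 0. It lies on chromosome 5 (33721674 to 33737068, plus strand). Its level was 3.20, 2.95, 3.04, 2.77 and 3.11 log2 CPM in labelled KO replicates 1 to 5, against 2.53, 2.54, 2.74, 2.87 and 2.59 log2 CPM in labelled WT replicates 1, 3, 4, 5 and 6. Apart from KO replicate 4 and WT replicate 5, which crossed, the labelled KO values were the higher ones. The log2 difference of 0.37 (SE 0.12, 95% interval 0.09 to 0.64) did not pass (limma adjusted p = 0.345; 0.0559 with 6 residual degrees of freedom). It was 0.55, 0.41 and 0.21 within litters 108, 110 and 112, and its absolute size exceeded that of 96.2% of all tested genes.

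Fgfr4, a receptor of satellite cells and regenerating mouse fibres, was the least abundant receptor. It lies on chromosome 13 (55152640 to 55168759, plus strand). It had 0.20, 0.55, 0.40, 0.66 and 0.31 log2 CPM in labelled KO replicates 1 to 5, against 0.80, 0.90, 0.52, 0.34 and 0.93 log2 CPM in labelled WT replicates 1, 3, 4, 5 and 6. The groups overlapped widely, with WT replicates 4 and 5 inside the labelled KO range. The log2 difference was -0.27 with a 95% interval from -0.75 to 0.20 (limma adjusted p = 0.729), or a fold of 0.827 with an interval from 0.595 to 1.15, the widest among the receptors. As a measure of receptor balance, log2 Fgfr1 minus log2 Fgfr3 averaged 2.64 ± 0.22 in labelled KO and 3.13 ± 0.25 in labelled WT libraries (SD, n = 5 each), with overlapping ranges of 2.38 to 2.94 in labelled KO and 2.76 to 3.33 in labelled WT libraries. Log2 Fgfr1 minus log2 Fgfr4 averaged 5.23 ± 0.13 in labelled KO and 5.09 ± 0.15 in labelled WT libraries, also with overlap.

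**Figure D3:**
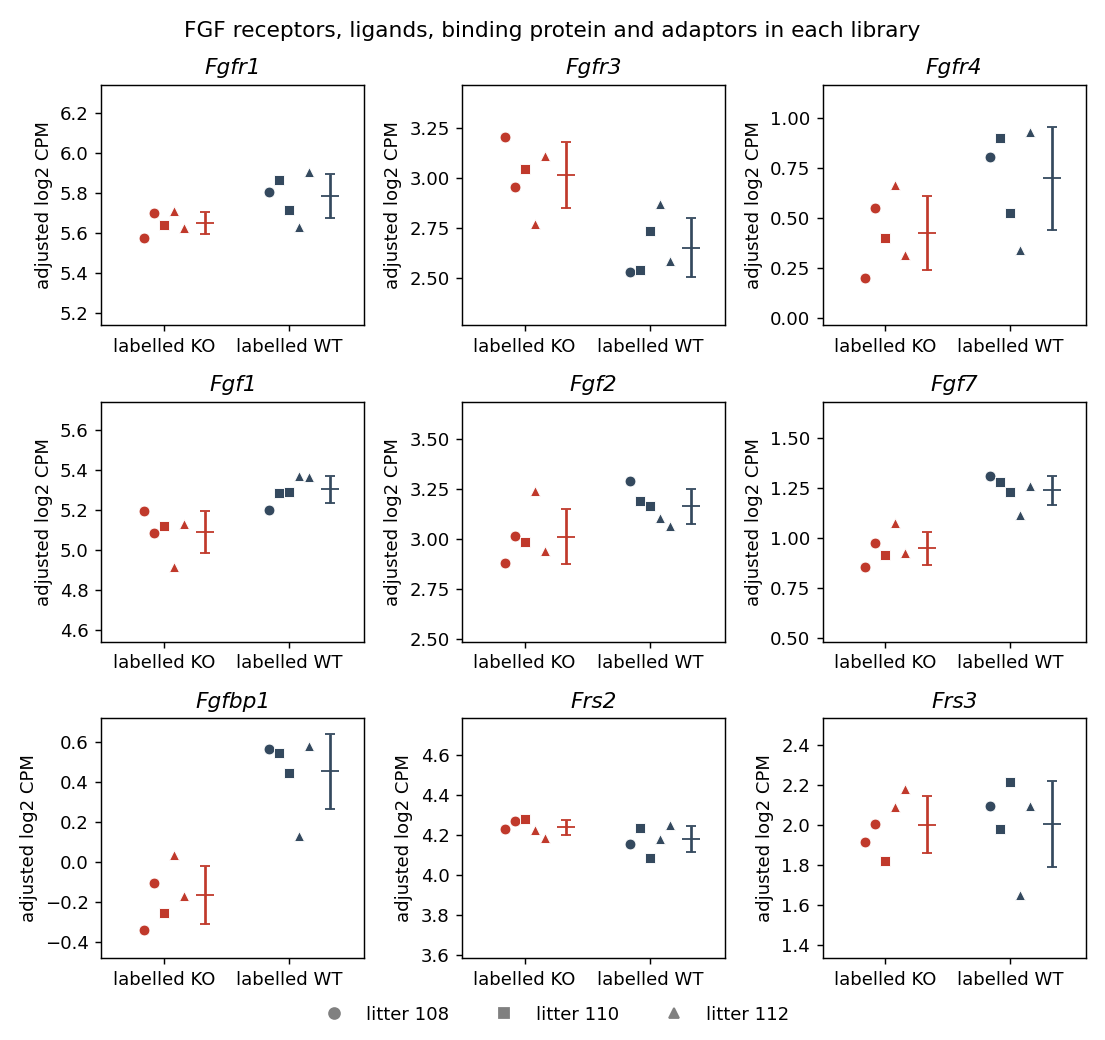
Adjusted log2 CPM of each member in every library, labelled KO left and labelled WT right, with symbols for litters and bars at mean ± SD; every panel spans the same number of log2 units. Fgf1, Fgf7 and Fgfbp1 separate without overlap, labelled KO below labelled WT, while the other members overlap.

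Fgf1, an acidic FGF without a classical signal peptide that binds every FGF receptor, was the most abundant ligand and was lower in all libraries labelled KO. The values were 5.19, 5.08, 5.12, 4.91 and 5.13 log2 CPM in labelled KO replicates 1 to 5, against 5.20, 5.28, 5.29, 5.37 and 5.37 log2 CPM in labelled WT replicates 1, 3, 4, 5 and 6. The groups did not overlap, but KO replicate 1 and WT replicate 1, both of litter 108, lay at nearly the same level. In CPM, Fgf1 averaged 34.1 ± 2.4 in labelled KO and 39.5 ± 1.9 in labelled WT libraries (SD, n = 5 each). The log2 difference was -0.21 (SE 0.08, 95% interval -0.38 to -0.05; limma adjusted p = 0.355). It was -0.06, -0.17 and -0.35 within litters 108, 110 and 112.

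Fgf2, basic FGF, a classical mitogen of satellite cells, showed no separation. Its level was 2.88, 3.01, 2.99, 3.24 and 2.94 log2 CPM in labelled KO replicates 1 to 5, against 3.29, 3.19, 3.16, 3.11 and 3.07 log2 CPM in labelled WT replicates 1, 3, 4, 5 and 6. The highest labelled KO value, that of replicate 4, lay above all labelled WT values but that of replicate 1. The log2 difference was -0.15 (95% interval -0.38 to 0.08, limma adjusted p = 0.684). It was -0.34 and -0.19 in litters 108 and 110 and 0.00 in litter 112. Refitted without WT replicate 1 it became 0.06, but there the lost dimensions are no longer independent of genotype. Fgf2 shares exonic sequence with Nudt6 on the opposite strand, and the sources used here do not say whether counting used the strand; Nudt6 differed by -0.08 (limma adjusted p = 0.81).

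Fgf7, keratinocyte growth factor, is made by mesenchymal cells and is known for acting on an epithelial splice form of FGFR2. The gene lies on chromosome 2 (126034658 to 126091185, plus strand). It had 0.86, 0.97, 0.92, 1.08 and 0.93 log2 CPM in labelled KO replicates 1 to 5, against 1.31, 1.28, 1.23, 1.12 and 1.26 log2 CPM in labelled WT replicates 1, 3, 4, 5 and 6. All labelled KO values lay below all labelled WT values, with KO replicate 4 and WT replicate 5 only a narrow step apart. The mean was 1.94 ± 0.11 CPM in labelled KO and 2.36 ± 0.12 CPM in labelled WT libraries (SD, n = 5 each). The log2 difference of -0.29 (SE 0.15, 95% interval -0.63 to 0.05) did not pass (limma adjusted p = 0.57), and passed narrowly with 6 residual degrees of freedom (adjusted p = 0.049, SE 0.08). That call was lost in 8 of 10 fits that left out 1 library, with adjusted p up to 0.243 without WT replicate 1, and kept without KO replicate 4 or WT replicate 5.

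Fgfbp1 carries FGFs away from their store in the extracellular matrix, and in mouse muscle it is known as a fibre-derived factor that favours reinnervation of the neuromuscular junction. Of the members it had the largest difference. It lies on chromosome 5 (43978858 to 43981779, minus strand). Its level was -0.34, -0.10, -0.25, 0.04 and -0.17 log2 CPM in labelled KO replicates 1 to 5, against 0.57, 0.55, 0.45, 0.13 and 0.58 log2 CPM in labelled WT replicates 1, 3, 4, 5 and 6. The groups did not overlap; 4 labelled WT libraries stood together well above the labelled KO libraries, and WT replicate 5 lay close to KO replicate 4. In CPM the means were 0.895 ± 0.091 in labelled KO and 1.38 ± 0.17 in labelled WT libraries (SD, n = 5 each), so the whole difference lies at a level near 1 CPM, where the reads behind a value may be few.

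The log2 difference of Fgfbp1 was -0.62 (SE 0.22, 95% interval -1.11 to -0.13), a fold of 0.651 with an interval from 0.465 to 0.911. The limma adjusted p was 0.355, and 0.0234 with 6 residual degrees of freedom. By litter it was -0.79 (108), -0.75 (110) and -0.42 (112), and its absolute size exceeded that of 99.2% of all tested genes, which were not matched for level. The call with 6 residual degrees of freedom was lost in 6 of 10 fits that left out 1 library, with adjusted p from 0.0577 without KO replicate 1 to 0.14 without WT replicate 1, and kept without KO replicate 4 or WT replicates 4, 5 or 6.

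Promoter sequence is shown for the 3 members with the largest absolute differences, Fgfbp1, Fgfr3 and Fgf7, as the 250 bases before the RefSeq start on GRCm38.p6, read 5′ to 3′ on the gene's strand. RefSeq windows were taken for 7 of the 9 members, and Fgfr3 has a further start downstream of the one shown. The Fgfbp1 window is chr5:43981800-43982049 (minus strand), that of Fgfr3 is chr5:33721474-33721723 (plus strand) and that of Fgf7 is chr2:126034408-126034657 (plus strand). Capitals mark E-boxes, matches to the core motif CANNTG bound by basic helix-loop-helix factors, among them the myogenic factors. The motif is palindromic as a consensus, so a match on either strand is also a match on the other, though its middle bases can differ.
Fgfbp1: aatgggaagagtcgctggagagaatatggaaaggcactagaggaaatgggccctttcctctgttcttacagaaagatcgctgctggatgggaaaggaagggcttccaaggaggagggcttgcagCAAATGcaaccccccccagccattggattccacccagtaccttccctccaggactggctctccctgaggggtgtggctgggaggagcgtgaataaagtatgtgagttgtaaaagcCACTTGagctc
Fgfr3: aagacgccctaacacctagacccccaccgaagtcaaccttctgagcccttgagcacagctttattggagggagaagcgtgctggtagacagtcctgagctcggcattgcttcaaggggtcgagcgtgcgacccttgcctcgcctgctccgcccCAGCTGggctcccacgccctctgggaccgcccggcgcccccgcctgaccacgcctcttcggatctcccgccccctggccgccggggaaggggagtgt
Fgf7: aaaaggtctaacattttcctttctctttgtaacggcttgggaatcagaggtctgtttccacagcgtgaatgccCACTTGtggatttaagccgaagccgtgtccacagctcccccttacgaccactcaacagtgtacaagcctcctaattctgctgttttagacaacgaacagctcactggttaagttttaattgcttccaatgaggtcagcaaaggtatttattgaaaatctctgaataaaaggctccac
The motif begins 126 and 11 bases before the start in Fgfbp1, 97 bases before it in Fgfr3 and 177 bases before it in Fgf7. It occurs at least once in 66.2% of 32851 RefSeq windows of that length, so its presence does not set these promoters apart. The windows differ in base composition, with a GC content of 53.6% in Fgfbp1, 66.8% in Fgfr3 and 43.6% in Fgf7, where the median of all windows is 52.4%.

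No difference was detected in the docking adaptors. Frs2, which links activated receptors to ERK, had 4.23, 4.27, 4.28, 4.22 and 4.19 log2 CPM in labelled KO replicates 1 to 5, against 4.16, 4.24, 4.09, 4.18 and 4.25 log2 CPM in labelled WT replicates 1, 3, 4, 5 and 6. These ranges overlapped, and the log2 difference of 0.06 had the narrowest interval of the members, from -0.10 to 0.22 (limma adjusted p = 0.846). Frs3, its paralog, had 1.91, 2.003, 1.82, 2.09 and 2.18 log2 CPM in labelled KO replicates 1 to 5, against 2.09, 1.98, 2.21, 1.65 and 2.09 log2 CPM in labelled WT replicates 1, 3, 4, 5 and 6. WT replicate 5 was the lowest library and the groups overlapped. The log2 difference of Frs3 was -0.0046 with a 95% interval from -0.34 to 0.33 (limma adjusted p = 0.996); it was -0.13, -0.28 and 0.26 within litters 108, 110 and 112.

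Across members the same libraries stood at the edges of their groups. Among libraries labelled KO, replicate 4 was the highest for Fgfr1, Fgfr4, Fgf2, Fgf7 and Fgfbp1 and the lowest for Fgfr3 and Fgf1, while replicate 1 was the lowest for Fgfr1, Fgfr4, Fgf2, Fgf7 and Fgfbp1 and the highest for Fgfr3 and Fgf1. Among libraries labelled WT, replicate 5 was the lowest for Fgfr1, Fgfr4, Fgf7, Fgfbp1 and Frs3 and the highest for Fgfr3 and Fgf1. Besides genotype, only 3 dimensions of variation were left within the deposited values. The order of libraries within a group lies in those 3 for every gene. What the 3 stand for was not tested. The genes most like 4 of the members over the 10 libraries were Tmem50a, Nptn and Svbp for Fgfr1 (Pearson r = 0.997, 0.996 and 0.996), Mrpl23-ps1, Dzip3 and 6720427I07Rik for Fgfr4 (0.995, 0.995 and 0.995), Lyrm7, Pck1 and Fgf7 for Fgfbp1 (0.996, 0.994 and 0.991) and Tm2d3, Hddc2 and Usp33 for Fgf7 (0.997, 0.997 and 0.996). As a wider count, r was at least 0.9 for 2% of the 10876 genes searched with Fgfr1 and 1.88% with Fgfr4. It was 2.93% with Fgfbp1 and 2.97% with Fgf7. With so few dimensions left and so many genes searched, a best r this high is easily reached. Shared regulation was not tested.

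Other genes of the pathway were described by role, in lists that share no gene with the members. Of 15 further secreted ligands, 2 had a row, Fgf6, a muscle-restricted FGF, and Fgf9. Fgf6 averaged 2.88 ± 0.30 log2 CPM in labelled KO and 2.60 ± 0.45 log2 CPM in labelled WT libraries (SD, n = 5 each), a log2 difference of 0.28 with a 95% interval from -0.24 to 0.80 (limma adjusted p = 0.749). Fgf9 lay below the expression minimum, at -0.40 ± 0.35 log2 CPM in labelled KO and -0.02 ± 0.35 log2 CPM in labelled WT libraries. The intracellular homologues Fgf13 and Fgf11, which bind sodium channels and are not secreted, differed by -0.11 and -0.05 (adjusted p = 0.709 and 0.932). Fgfrl1, a receptor without a kinase domain, differed by -0.11 (adjusted p = 0.697), and Fgfbp3, the other binding protein measured, by -0.12 (0.92).

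Of 22 tested heparan sulfate proteoglycans and the enzymes that build or trim their chains, 10 had a difference below 0 and 12 above. Their median was 0.01, and 0 passed with limma. At an unadjusted p under 0.05 was 1 of the 22, where 10.1% of all tested genes reached that level. Sdc4, a syndecan of satellite cells and many other cells, was that gene. It averaged 4.34 ± 0.02 log2 CPM in labelled KO and 4.05 ± 0.05 log2 CPM in labelled WT libraries (SD, n = 5 each), a log2 difference of 0.29 (SE 0.07; limma adjusted p = 0.165, and 0.0034 with 6 residual degrees of freedom, where 5.15% of all genes passed as higher).

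Downstream, none of 21 adaptors and RAS-ERK kinases and none of 21 tested ERK feedback and target genes passed either. At an unadjusted p under 0.05 were 1 of the 21 and 2 of the 21, where 10.1% of all tested genes reached that level. The differences in the adaptor and kinase list had a median of 0.01 and lay between -0.14 and 0.11. Within it, Plcg1, the phospholipase that FGF receptors bind directly, differed by -0.14 (limma adjusted p = 0.468, and 0.014 with 6 residual degrees of freedom) and Sos2, a RAS activator, by 0.10 (0.545 and 0.0396). In the feedback and target list, the cyclin gene Ccnd1 averaged 3.82 ± 0.06 log2 CPM in labelled KO and 3.46 ± 0.13 log2 CPM in labelled WT libraries (SD, n = 5 each), a difference of 0.37 (adjusted p = 0.2, and 0.0156 with 6 residual degrees of freedom). Spsb1 differed by 0.60 (adjusted p = 0.253 and 0.0481). The median of that list was 0.03. With 6 residual degrees of freedom the first list thus had 1 gene lower and 1 higher, and the second 2 higher. That fit passed 3.48% of all tested genes as lower and 5.15% as higher.

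**Figure D4:**
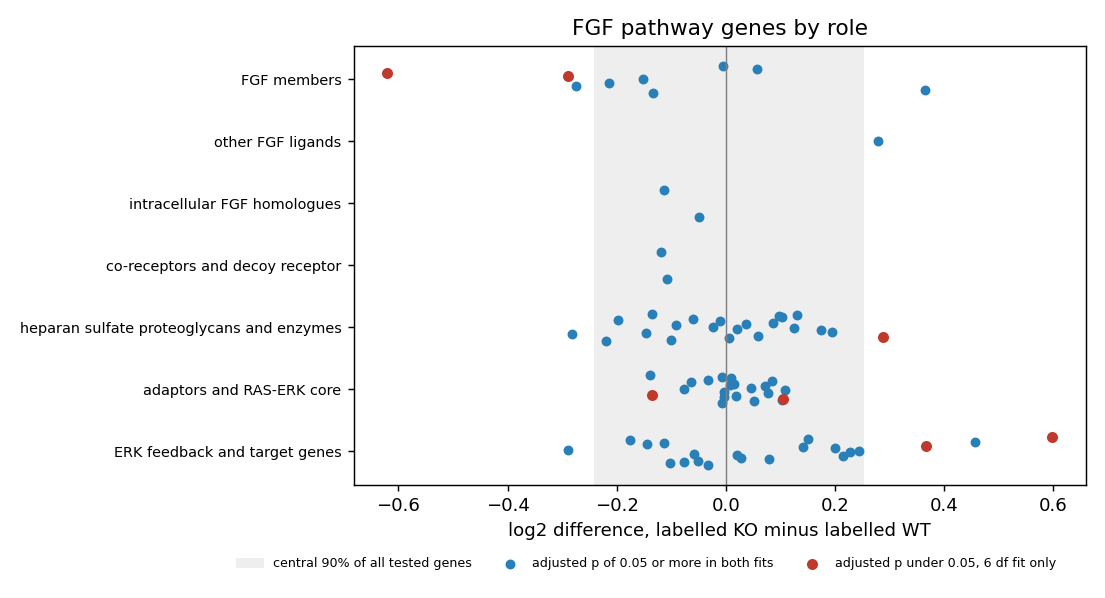
Log2 difference, labelled KO minus labelled WT, of tested FGF pathway genes (points) by role; the grey band holds the central 90% of all tested genes, from -0.24 to 0.25. Red points passed in the fit with 6 residual degrees of freedom (df) only, and no point passed with the 3 that remained.

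Markers of the cells that could carry these transcripts were read beside them. In bulk muscle, fewer cells of a type and less RNA per cell cannot be told apart. Differences were below 0 for 6 of 8 fibroblast and fibro-adipogenic progenitor markers (median -0.10), and their summed level was 902 to 1009 CPM in labelled KO and 907 to 1067 CPM in labelled WT libraries. KO replicate 4 had the highest and WT replicate 5 the lowest sum of its group, as for Fgf7 and Fgfbp1, but the lowest labelled KO sum was that of replicate 3, not of replicate 1. The macrophage and satellite cell sums had KO replicate 4 highest, KO replicate 1 lowest and WT replicate 5 lowest. For macrophages they were 32.8 to 35.2 CPM in labelled KO and 34.0 to 40.0 CPM in labelled WT libraries, with 6 of 6 markers below 0. Schwann cell sums also had KO replicate 4 highest (74.7 CPM) and KO replicate 1 lowest (31.5 CPM). Their lowest labelled WT sums were those of replicates 4 and 5, both 41.4 CPM. Other lists had other orders. Endothelial sums had KO replicate 4 lowest (345 CPM) and KO replicate 1 highest (371 CPM). Pericyte and smooth muscle sums also had KO replicate 4 lowest (781 CPM). Adipocyte and tendon sums had KO replicate 5 highest (14.1 and 204 CPM), and myofibre and junction sums had KO replicate 2 highest. All 5 tested adipocyte markers lay below 0, with a median of -0.98, and 0 passed. With 6 residual degrees of freedom 4 did, where 3.48% of all tested genes passed as lower. All 5 had an unadjusted p under 0.05, where 10.1% of all tested genes did. The summed adipocyte level of 9.10 to 14.1 CPM in labelled KO did not overlap with the 17.0 to 30.0 CPM of labelled WT libraries. The part of any of these cell types in the differences of the members was not tested.

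Satellite cell markers summed to 42.9 to 44.6 CPM in labelled KO and 40.8 to 42.3 CPM in labelled WT libraries, without overlap, but 5 of the 6 markers had a difference below 0, with a median of -0.09. The one above 0 was Sdc4, which made 20.2 CPM of the sum in labelled KO and 16.6 CPM in labelled WT libraries on average. Pax7, the defining marker, differed by -0.14 (limma adjusted p = 0.824), Myf5 by -0.21 (0.798) and Chodl by -0.20 (0.581), and Calcr was not analysed here. The 8 neuromuscular junction genes all lay above 0, with a median of 0.14, and 0 of 8 passed. Their summed level was 138.0 to 144 CPM in labelled KO and 124 to 138.4 CPM in labelled WT libraries. At an unadjusted p under 0.05 were 2 of the 8, Chrnd (0.45) and Musk (0.44), where 10.1% of all tested genes reached that level. The 4 tested genes of the denervation response also lay above 0, with a median of 0.20 and 0 past the threshold. Of these, Runx1, a transcription factor gene induced by denervation, had a difference of 0.46 (limma adjusted p = 0.392, and 0.0483 with 6 residual degrees of freedom). The latter fit passed 5.15% of all tested genes as higher. All labelled KO libraries lay above all labelled WT libraries for Runx1, where groups failed to overlap in 16.2% of all tested genes. Runx1 was the 1 gene of that list with an unadjusted p under 0.05. The lists for endothelium, pericytes and smooth muscle, macrophages, Schwann cells and tendon had medians of 0.05, -0.05, -0.12, -0.11 and -0.23, with no gene past the threshold and summed levels that overlapped between groups.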

How the data were processed

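Libraries of tibialis anterior mRNA (TRIzol extracts) were directional and oligo-dT primed, per the labels' protocols. The submitters' processing notes name fastp, kallisto and limma; the sources used here do not give a genome build, an annotation or the use of strand. A single deposited table holds adjusted log2 CPM for the 10 libraries, each summing to between 960166 and 1016400 CPM. Read totals are unknown, so no counting interval is given.

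With genotype fitted, no gene differed between litters, and the residuals spanned 3 of the 6 dimensions that litter and genotype leave. Litter and 3 further terms had thus been removed with genotype kept; SDs leave that variation out. Differences (KO minus WT) were tested with limma 3.58.1 in R 4.3.3 (lmFit, eBayes with trend, two-sided), with litter, the 3 removed directions and genotype as terms, for genes averaging 0 log2 CPM or more. Calls needed an adjusted p (Benjamini-Hochberg) under 0.05. No pseudocount was added. The procedure was tested on simulated data with independent normal noise for each gene. The terms of the main fit were taken out of those data, so the simulation cannot check that choice of terms for the deposited values. Samples were grouped by title. The alternatives concerned residual degrees of freedom, filter, pseudocount, scaling, variance model, litter, replicate block and single libraries.

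Positions and transcript lengths came from GENCODE M21 (GRCm38), matched by Ensembl identifier, and promoters from RefSeq. Named genes were the members, Lrtm1, and of each role list those past the threshold in either fit or else the 2 with the lowest p. Gene lists and members were chosen with earlier results of these data known. Nudt6 and the junction, denervation and satellite cell genes were named after their values were seen.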

Additional observations from a re-analysis of the deposited data

How the results depend on the processing

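With litter and genotype as the only terms (6 residual degrees of freedom), 1054 genes passed in all, or 8.62% of all tested genes. Among them were 2 of 9 members (Fgf7 at -0.29 and Fgfbp1 at -0.62) and 5 other FGF pathway genes. Those 5 came from role lists of 22, 21, 21, 2, 2 and 1 tested genes. Without the litter term, which counts 5 residual degrees of freedom, 517 of 12223 genes passed. These held 1 of 9 members, Fgfbp1 (-0.62, adjusted p = 0.0478), and 3 genes of the same role lists. Quantile normalization left 24 genes past the threshold and eBayes without the trend 1. No members passed under these 2 settings, under no filter, a mean log2 CPM of at least 1 (which drops Fgfr4 and Fgfbp1), log2(CPM + 1), median centring or robust eBayes. Leaving out 1 library gave between 1 and 54 genes, with no member among them. In those fits the log2 difference ran from -0.25 to 0.0645 for Fgf2 and from -0.0259 to 0.11 for Frs2. For Frs3 it ran from -0.14 to 0.36, so these fits do not settle the direction of these 3. Once a library is dropped, the 3 removed directions are no longer independent of genotype. Shifts in those fits therefore mix the loss of a library with the refitted terms. Frs3 was also 0.0111 with quantile normalization and 0.0165 with the replicate block. Fgfr1, Fgfr4, Fgf1, Fgf7 and Fgfbp1 lay below 0 and Fgfr3 above 0 in every setting run. Their size shifted in the fits that left out 1 library and kept the removed directions as terms. Leaving out 1 library gave -0.26 (without KO replicate 2) to -0.06 (WT replicate 3) for Fgfr1, 0.16 (WT replicate 1) to 0.52 (KO replicate 2) for Fgfr3, -0.58 (KO replicate 2) to -0.08 (WT replicate 3) for Fgfr4, -0.38 (WT replicate 1) to -0.14 (KO replicate 4) for Fgf1, -0.35 (KO replicate 2) to -0.17 (WT replicate 1) for Fgf7 and -0.78 (KO replicate 2) to -0.43 (WT replicate 1) for Fgfbp1. On the log2(CPM + 1) scale, which understates changes of low genes, Fgfbp1 was at -0.33. With litter and genotype as the only terms, the ranges over fits that left out 1 library were narrower. They were -0.33 to -0.25 for Fgf7 and -0.73 to -0.55 for Fgfbp1. These fits, run for Fgf7 and Fgfbp1 alone, were chosen after seeing the data. The cause of these changes was not tested, except that the fits with 5 and 6 degrees of freedom count variation that the deposited values no longer hold.

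The replicate block used the 4 replicate numbers that both groups carry, 8 libraries, and could not also hold the removed terms. It gave 127 of 12223 genes, 0 members and 1 other pathway gene. Same-numbered libraries correlated at -0.85, 0.45, 0.03 and -0.50 once centred by group. Litter had been removed, so centred values cancel within each litter, and these correlations cannot decide whether the numbers pair samples. The libraries numbered 4 come from different litters, so the numbers do not pair littermates throughout. Depth is unknown, so the counting error of low members such as Fgfbp1, Fgfr4 and Fgf7 could not be given.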
